A study of Mus musculus with 6 samples.

Results

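Transcripts of the interleukin 6 cytokine family were examined in muscle fibro-adipogenic progenitors given prostaglandin E2 (PGE2), a lipid mediator of inflammation. The 10 genes were Il6, Lif, Il11 and Clcf1, which encode ligands, Il6ra, Il6st, Lifr and Osmr, which encode receptor chains, the transcription factor gene Stat3 and the inhibitor gene Socs3. They were found by symbol among 41388 genes in the count table and had been chosen from values measured in this same comparison. Their differences between groups are therefore given as descriptions and no test of them counts as support. All 10 passed the filter on low counts that left 15186 genes.

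Fibro-adipogenic progenitors are mesenchymal cells that lie between the fibers of skeletal muscle. Here they were primary cells of male wild-type mice, grown in serum with fibroblast growth factor, and both groups shared this background. One group received 500 nM PGE2 and the other vehicle, with 1 addition a day over 2 days, and each group had 3 libraries of polyadenylated RNA. The age of the mice, the number of mice behind a library and the time between the last addition and extraction are not stated in the sources used here. Whether the libraries of a group stem from separate mice or cultures is not stated either, so p-values reflect only how far these samples lie apart, and that spread may be technical.

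Cytokines of this family bind a receptor chain of their own, such as the interleukin 6 receptor encoded by Il6ra, and then recruit gp130, the shared signalling chain encoded by Il6st. Leukemia inhibitory factor uses gp130 with the chain encoded by Lifr, and the oncostatin M receptor chain encoded by Osmr pairs with gp130 as well. JAK kinases on these chains activate STAT3, which induces Socs3, and the SOCS3 protein binds gp130 and dampens the signal. In skeletal muscle, interleukin 6 and leukemia inhibitory factor act on muscle stem cells during regeneration, and progenitors of this kind are a known source of interleukin 6.

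The 250 bases before the RefSeq transcription start are shown for Il6, Lif, Il11 and Socs3, which were higher under PGE2 and carried searched letters. RefSeq promoter entries on GRCm38.p6 matched 9 of the 10 genes, all but Clcf1, and Il11 and Lifr had 2 entries each. Letters searched on both strands were TGACGTCA (the cyclic AMP response element), TGACG (its short form), GGNNTTTCC (NF-kappaB), TTCNNNGAA (STAT), TTGCNNAA (C/EBP) and TGANTCA (AP-1). The short form lies within the full element. Capitals in the sequences mark every match, and the last base of each is the one before the start.

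Il6, chr5:30012864-30013113, plus strand: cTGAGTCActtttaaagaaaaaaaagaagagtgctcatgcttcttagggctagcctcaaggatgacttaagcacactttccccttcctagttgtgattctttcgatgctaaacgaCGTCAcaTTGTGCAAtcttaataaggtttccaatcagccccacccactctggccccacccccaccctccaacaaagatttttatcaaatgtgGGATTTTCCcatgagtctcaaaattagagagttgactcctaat

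Lif, chr11:4257318-4257567, plus strand: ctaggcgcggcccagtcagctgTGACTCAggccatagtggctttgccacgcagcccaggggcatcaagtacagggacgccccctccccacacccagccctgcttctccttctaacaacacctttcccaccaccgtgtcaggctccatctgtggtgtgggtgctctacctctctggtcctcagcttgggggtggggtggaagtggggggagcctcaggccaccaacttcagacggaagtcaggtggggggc

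Il11 second entry, chr7:4778142-4778391, minus strand: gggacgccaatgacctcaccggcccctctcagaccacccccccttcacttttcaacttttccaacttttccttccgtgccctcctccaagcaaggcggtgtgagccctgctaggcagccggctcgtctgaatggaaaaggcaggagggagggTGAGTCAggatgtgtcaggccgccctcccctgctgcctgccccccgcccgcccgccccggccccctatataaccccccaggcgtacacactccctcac

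Socs3, chr11:117969367-117969616, minus strand: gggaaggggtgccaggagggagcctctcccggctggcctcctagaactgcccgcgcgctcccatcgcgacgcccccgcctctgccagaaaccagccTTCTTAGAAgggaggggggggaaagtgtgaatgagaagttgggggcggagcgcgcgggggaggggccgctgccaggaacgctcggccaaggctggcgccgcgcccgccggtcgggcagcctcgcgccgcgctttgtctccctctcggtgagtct

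The Il6 window held matches to 4 of the 6 motifs. They were an AP-1 match at 249 to 243 bases before the start, the short cyclic AMP element on the reverse strand at 135 to 131, a C/EBP match on the reverse strand at 128 to 121 and an NF-kappaB match at 43 to 35. Lif carried an AP-1 match at 228 to 222 bases before the start, and the second Il11 entry carried one at 98 to 92. Socs3 carried a STAT match at 154 to 146. Outside these 4 windows, the Il6ra window held the short cyclic AMP element at 236 to 232. Among 32851 promoter windows of this length, 17.8% held the short cyclic AMP element, 1.55% the full one, 4.93% the NF-kappaB letters, 7.02% the STAT letters, 9.56% the C/EBP letters and 6.75% the AP-1 letters. The last 11 bases of the Lif window lie in an annotated transcript of Lif, and 77 bases of the Socs3 window lie in an exon of a noncoding Socs3 transcript. A match is a description of letters and not evidence of binding.

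The libraries held 21006044 to 52730962 counts, and vehicle library 2 was the smallest. Levels are in CPM, counts relative to library size after scaling by trimmed mean of M values, and 3 counts equalled 0.0582 to 0.142 CPM. Libraries of the same group differed beyond sampling noise (chi-square per degree of freedom 20.04 to 100.0). The progenitor marker Pdgfra was abundant in every library, between 1122 and 1455 CPM.

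Il6, the gene for interleukin 6, was the most shifted of the 10. It lies on chromosome 5 at 30013114 to 30019981 of mm10, on the plus strand. In vehicle libraries 1 to 3 it was at 1.56, 1.14 and 1.76 CPM, from 67, 24 and 76 counts. In PGE2 libraries 1 to 3 it was at 7.67, 17.7 and 15.8 CPM, from 356, 912 and 581 counts. The groups did not overlap, and PGE2 library 1 was the lowest of the treated libraries. The mean went from 1.48 ± 0.317 to 13.7 ± 5.32 CPM (SD, n = 3 each), and the log2 fold change was 3.18 ± 0.353 (SE, edgeR). Only 1 of the 15186 tested genes had a higher log2 fold change.

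Comparing libraries of the same number, Il6 was 4.92-fold, 15.6-fold and 8.997-fold higher under PGE2. The direction was the same in every pair and the ratio was smallest in pair 1. The second ratio rests on the vehicle library with 24 counts. Across all tested genes, 26.6% were higher in all 3 pairs and 25.5% were lower in all 3.

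Lif encodes leukemia inhibitory factor and lies on chromosome 11 at 4257557 to 4272514, 16530 bases from Osm. Its vehicle libraries were at 6.58, 6.44 and 6.29 CPM and its PGE2 libraries at 10.2, 9.50 and 10.9 CPM. The vehicle values were nearly equal and all lay below the PGE2 values. The log2 fold change was 0.66 ± 0.109 (SE).

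Il11, the gene for interleukin 11, lies on chromosome 7 at 4772373 to 4782859. Vehicle libraries were at 1.56, 1.14 and 1.69 CPM and PGE2 libraries at 2.33, 3.08 and 4.05 CPM. Counts were low, 24 to 73 in vehicle and 108 to 159 under PGE2, and the groups did not overlap. The mean was 2.16-fold higher under PGE2, with a log2 fold change of 1.09 ± 0.262 (SE).

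Clcf1 encodes cardiotrophin-like cytokine factor 1, a ligand that acts through the ciliary neurotrophic factor receptor complex. It lies on chromosome 19 at 4214238 to 4223490 and shares its span with another coding gene model on the same strand, so some of its counts are uncertain. The vehicle libraries were at 20.5, 15.8 and 18.5 CPM and the PGE2 libraries at 25.0, 28.9 and 27.3 CPM. The lowest PGE2 library lay above the highest vehicle library, and the log2 fold change was 0.56 ± 0.113 (SE).

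The balance among these ligand genes also differed. Their summed CPM was 30.2, 24.5 and 28.3 in vehicle and 45.2, 59.1 and 58.0 under PGE2. Il6 made up 5.34 ± 0.802% of that sum in vehicle and 24.7 ± 6.84% under PGE2 (SD, n = 3 each), while Clcf1 went from 66.0 ± 1.79% to 50.4 ± 4.37%. The ratio of Il6 to Lif CPM was 0.237, 0.176 and 0.279 in vehicle and 0.751, 1.86 and 1.46 under PGE2. Il6 thus lay below Lif in every vehicle library and above it in PGE2 libraries 2 and 3 but not in library 1. These shares compare CPM, which is not corrected for transcript length, so the change of a share is more readable than its size.

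**Figure D1:**
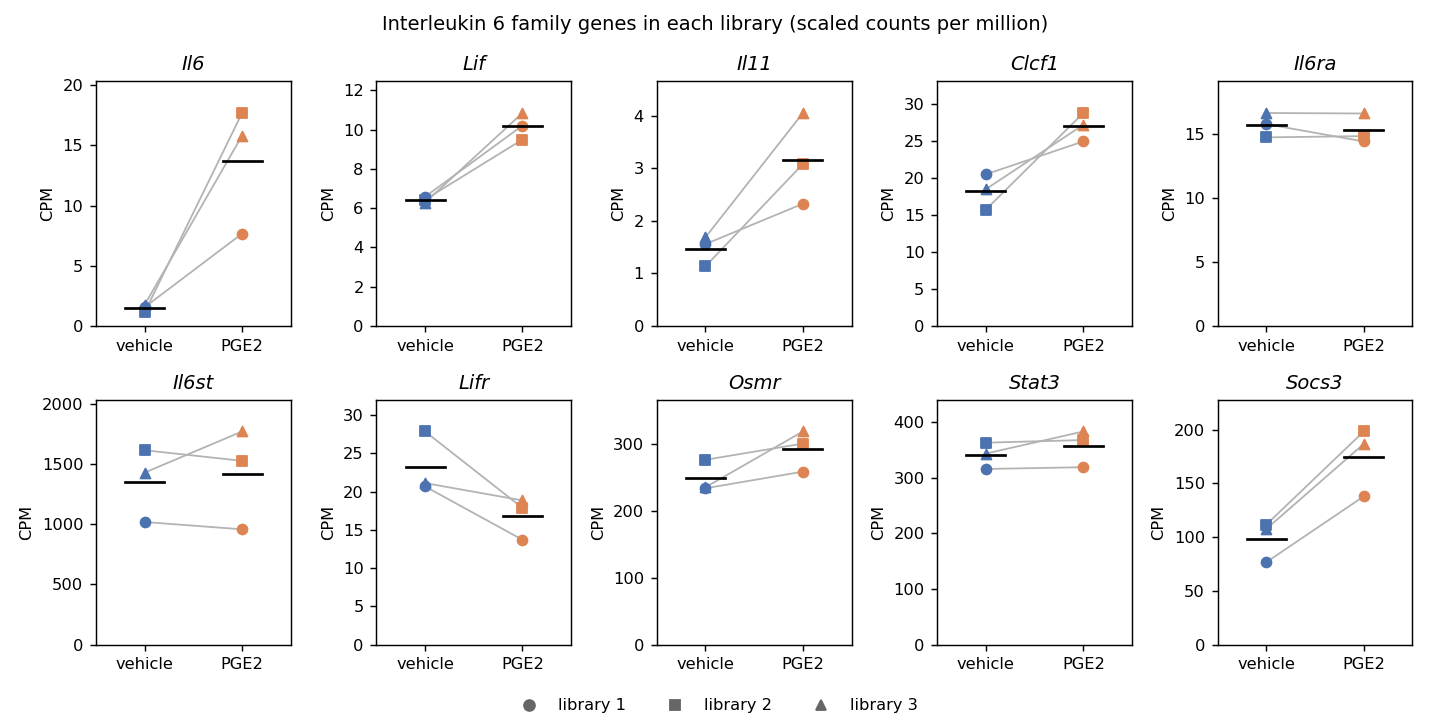
Level of each of the 10 genes in CPM (vertical axes, each starting at 0) for vehicle and PGE2 libraries. Symbols give the library number, grey lines join libraries of the same number and black bars are group means. Il6, Lif, Il11, Clcf1 and Socs3 have every PGE2 library above every vehicle library, and Lifr has the reverse.

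Of the receptor genes, 3 had groups that overlapped and Lifr was lower. Il6st, which encodes gp130, lies on chromosome 13 at 112464070 to 112510086. It was at 1019, 1616 and 1430 CPM in vehicle and 958, 1528 and 1772 CPM under PGE2. Library 1 was the lowest in both groups, the groups overlapped, and the log2 fold change was 0.07 ± 0.258 (SE). That error is wide and leaves room for moderate differences in either direction.

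Il6ra, which encodes the chain specific to interleukin 6, lies on chromosome 3 at 89864059 to 89913196 and overlaps an antisense gene. Vehicle libraries were at 15.8, 14.8 and 16.7 CPM and PGE2 libraries at 14.5, 14.9 and 16.6 CPM. The groups overlapped almost fully, and the log2 fold change was -0.04 ± 0.097 (SE).

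Osmr encodes the oncostatin M receptor chain and lies on chromosome 15 at 6813577 to 6874969. Vehicle libraries were at 234, 277 and 236 CPM and PGE2 libraries at 259, 301 and 319 CPM. Each PGE2 library was above the vehicle library of its number, by 1.11-fold, 1.09-fold and 1.36-fold, but the groups overlapped.

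Lifr encodes the leukemia inhibitory factor receptor chain and is the neighbor of Osmr, 215644 bases away at 7090614 to 7197489. It was at 20.7, 27.9 and 21.1 CPM in vehicle and 13.7, 17.9 and 18.9 CPM under PGE2. It was the single gene of the 10 with every PGE2 library below every vehicle library, and the log2 fold change was -0.46 ± 0.161 (SE). The deficit was smaller in pair 3, at 0.892-fold, than in pairs 1 and 2, at 0.662-fold and 0.641-fold. In bulk RNA, fewer cells that express a gene and less of its RNA per cell cannot be told apart. The ratio of Osmr to Lifr CPM was 9.93 to 11.3 in vehicle libraries and 16.8 to 18.9 in PGE2 libraries, without overlap.

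Stat3 lies on chromosome 11 at 100885098 to 100939540 and overlaps Stat5a by 72 bases. Its vehicle libraries were at 316, 363 and 343 CPM and its PGE2 libraries at 319, 368 and 383 CPM. The groups overlapped, and the log2 fold change was 0.07 ± 0.100 (SE). These are transcript levels and carry no information on phosphorylated STAT3 protein.

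Socs3 lies on chromosome 11 at 117966079 to 117970047. Vehicle libraries were at 76.6, 112 and 108 CPM and PGE2 libraries at 138, 198 and 187 CPM, with no overlap. Library 1 was lowest in both groups, and the ratio within pairs was nearly constant, at 1.799-fold, 1.778-fold and 1.735-fold. Of the 10 genes, Il6 had within-pair ratios that differed the most, and Socs3 had close ones despite the spread of its levels. The log2 fold change was 0.82 with a standard error of 0.186 in edgeR without pairing and 0.067 with the replicate number as a block. The ratio of Socs3 to Stat3 CPM was 0.243, 0.307 and 0.313 in vehicle and 0.432, 0.539 and 0.487 under PGE2.

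Counted together, 5 of the 10 genes had every PGE2 library above every vehicle library and 1 had the reverse. Across all tested genes these shares were 13.7% and 12.2%. Without pairing, edgeR at a Benjamini-Hochberg adjusted p under 0.05 called 1 of the 10 higher, Il6, and 0 lower, beside 0.211% higher and 0.132% lower of all tested genes. 6 of the 10 had an unadjusted p under 0.05, as had 3049 of all 15186 tested genes. Il6 lost this call when any library other than PGE2 library 1 was left out, and with the length correction alone its adjusted p was 0.0553. With the replicate block, 5 were called higher (Il6, Lif, Il11, Clcf1 and Socs3) and 1 lower (Lifr), beside 6.91% and 7.51%. DESeq2 called the same 5 higher and 0 lower, beside 2.82% and 3.2%. Since this contrast chose the genes, nothing is read from these counts.

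**Figure D2:**
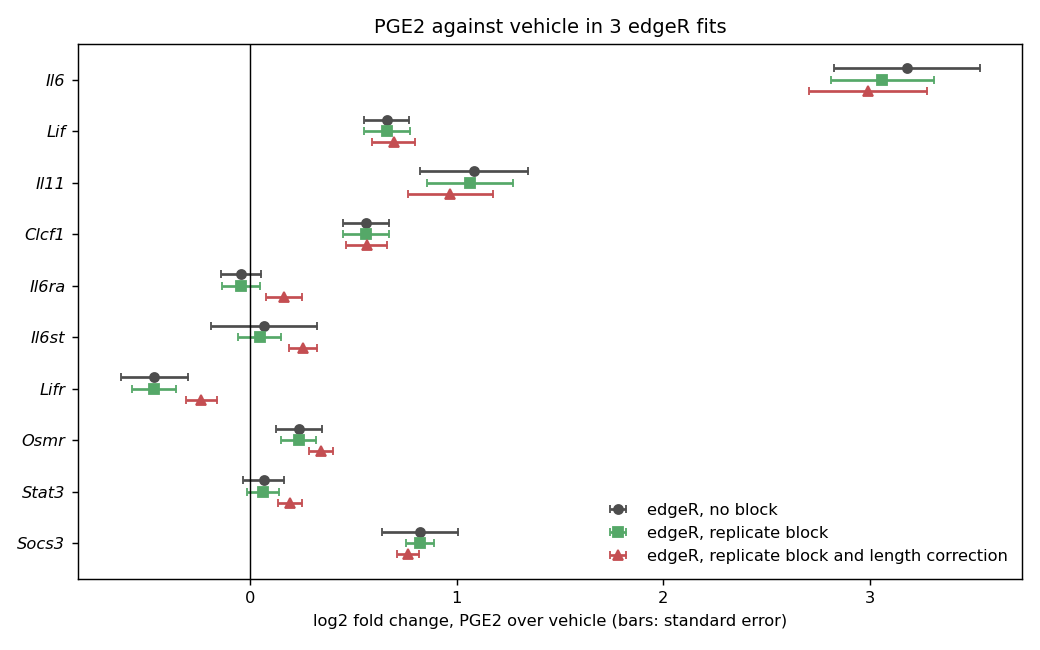
Log2 fold change of PGE2 over vehicle (horizontal axis) for the 10 genes in 3 edgeR fits, with standard errors as bars. Il6 lies near 3 in each fit, and the long transcripts of Il6ra, Il6st, Lifr, Osmr and Stat3 lie farther to the right once transcript length is corrected for.

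Fold changes followed transcript length across the table, and the 10 genes include short and long transcripts. The rank correlation between the longest annotated transcript and the log2 fold change was -0.408 over 15098 genes, which are not independent replicates. It was -0.478, -0.435 and -0.031 within pairs 1, 2 and 3. The 5 genes that were higher under PGE2 have longest transcripts of 1949 to 4026 bases, whereas Il6ra, Il6st, Lifr, Osmr and Stat3 have 5491 to 9655 bases.

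With a length correction and the replicate block, Il6 was at 2.99 ± 0.287 and Socs3 at 0.77 ± 0.053 on the log2 scale (SE). The values of Lif, Il11 and Clcf1 were 0.70, 0.97 and 0.56. Lifr moved from -0.46 to -0.24, Osmr from 0.23 to 0.34, Il6st from 0.05 to 0.26, Stat3 from 0.06 to 0.20 and Il6ra from -0.04 to 0.16. In that fit 8 of the 10 were called higher and 1 lower, beside 8.82% and 7.97% of all tested genes, and Il6ra was the gene not called. Compared with the fit without pairing or correction, the median over the 4 ligand genes went from 0.87 to 0.83 and that over the 4 receptor genes from 0.01 to 0.21, and Lifr was below 0 in both.

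Levels can be compared between genes only per length, and CPM per kilobase of the longest coding transcript was used. In vehicle, Il6st was highest at 156 ± 35.2, followed by Stat3 at 56.4 ± 3.93, Osmr at 45.3 ± 4.42 and Socs3 at 38.6 ± 7.49 (SD, n = 3). Clcf1 followed at 9.90 ± 1.30, then Lifr at 2.41 ± 0.418, Il6ra at 1.82 ± 0.111 and Lif at 1.60 ± 0.0368. Il11 at 0.749 ± 0.148 and Il6 at 0.633 ± 0.135 were last, and their ranges overlapped, as did those of Osmr and Socs3. All other neighbors in this order had ranges over the libraries that did not overlap. The shared chain gp130 was thus expressed at far higher transcript levels than the specific chain Il6ra in every library.

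Under PGE2, Il6 was sixth at 5.85 ± 2.27 CPM per kilobase, above Lif at 2.53 ± 0.168. Socs3 was at 68.3 ± 12.6, and its range of 54.0 to 77.7 overlapped that of Stat3, 52.8 to 63.4, and that of Osmr, 47.2 to 58.1. Il6ra at 1.77 ± 0.135, Lifr at 1.74 ± 0.283 and Il11 at 1.62 ± 0.444 had overlapping ranges and no readable order. With the annotation's principal transcript as the length, Il6ra was at 4.71 in vehicle and 4.58 under PGE2, above Lifr and Lif. Il6 was then at 1.30 in vehicle, with its range above that of Il11, and at 12.02 under PGE2. Il6st remained first and Clcf1 the fifth in both groups.

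**Figure D3:**
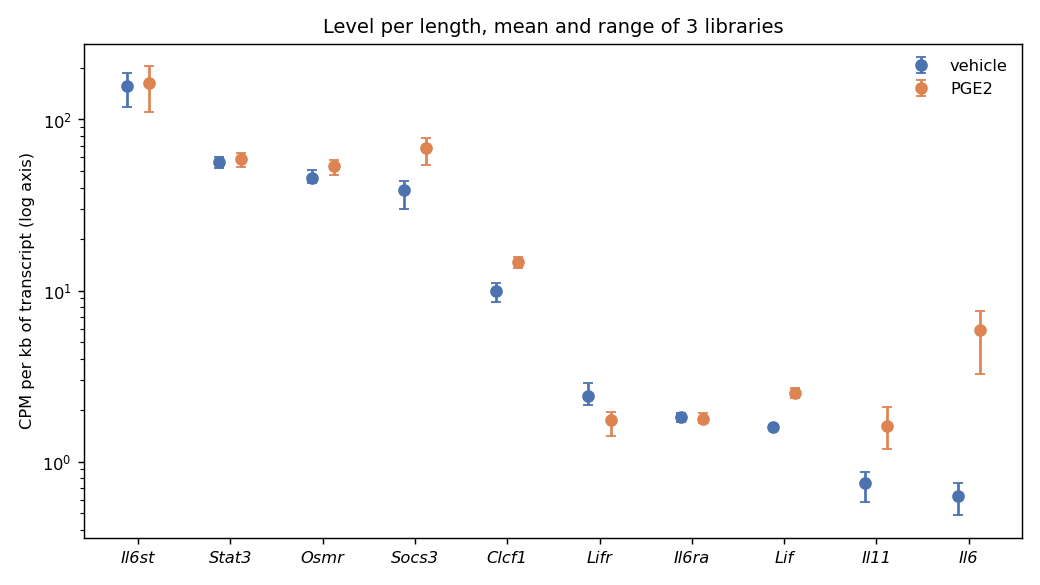
CPM per kilobase of the longest coding transcript (vertical log axis) for the 10 genes, ordered by the vehicle mean. Points are means and bars the range of 3 libraries. Il6 has the lowest mean in vehicle, 0.633, with a range that overlaps that of Il11, and is at 5.85 under PGE2. Il6st is highest in both groups.

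Other genes of the pathway were counted in 6 lists with 99 genes, of which 86 passed the filter. None of them is among the 10 genes, and the lists were drawn up with earlier results of these data known. Without pairing, edgeR called 3 higher (Ier3, Nfkbiz and Crem) and 0 lower at a Benjamini-Hochberg adjusted p under 0.05. The shares of all tested genes called in that fit were 0.211% higher and 0.132% lower. Of the 86, 34 had an unadjusted p under 0.05, as had 3049 of all 15186 tested genes. With the replicate block 26 were higher and 5 lower, beside 6.91% and 7.51% of all tested genes, so the lower calls were no more frequent than in the whole table. DESeq2 had 17 higher and 0 lower, beside 2.82% and 3.2%. With the length correction alone Ier3 and Nfkbiz passed. The count without pairing was 0 when any library other than PGE2 library 1 was left out, and 8 without that library.

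Among 7 further ligand genes of the family 1 was tested, and it passed in none of the 4 fits. Ctf1, the cardiotrophin 1 gene, was at 1.38 ± 0.499 CPM in vehicle and 1.61 ± 0.433 CPM under PGE2, with a log2 fold change of 0.21 ± 0.325 (SE) and an unadjusted edgeR p above 0.05. Osm, the oncostatin M gene beside Lif, had 0 counts in all 6 libraries, which allows up to 0.0582 to 0.142 CPM per library, counting error only.

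Of the 8 further receptor genes 4 were tested, and 0 passed in the unblocked fit, the blocked fits or DESeq2, with 0 at an unadjusted p under 0.05 in the unblocked edgeR fit. Il11ra1, the interleukin 11 receptor chain, was at 123 ± 20.8 CPM in vehicle and 124 ± 20.6 CPM under PGE2. Cntfr, the ciliary neurotrophic factor receptor through which the Clcf1 product acts, was at 4.67 ± 0.157 and 4.85 ± 0.159 CPM. Il12rb2 and Csf3r had 0 counts in all libraries.

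Genes for receptor shedding, kinases and other STAT proteins gave 0 calls among 13 tested in the unblocked fit, the blocked fit and DESeq2. In the unblocked edgeR fit 3 of the 13 had an unadjusted p under 0.05, beside 3049 of all 15186 tested genes. The median log2 fold change of the 13 was -0.15, or -0.09 with the block and the length correction. For all tested genes it was 0.00 and -0.01. Adam17, which encodes the protease that sheds the interleukin 6 receptor, was at 125 ± 12.2 and 104 ± 4.26 CPM and was called lower only with both the block and the length correction. Jak1, the main kinase on gp130, was at 385 ± 41.9 and 324 ± 22.3 CPM, without overlap and without passing in any of the 4 fits.

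Among 13 tested genes that restrain the pathway, 0 passed without pairing. An unadjusted edgeR p under 0.05 was found for 5 of them, beside 3049 of all 15186 tested genes. With the block, 3 of the 13 rose and 1 fell, beside 6.91% and 7.51% of all tested genes. The lower call is thus at the background share. The phosphatase gene Ptpn1 rose from 112 ± 10.3 to 147 ± 15.8 CPM, Dusp1 from 34.2 ± 9.37 to 47.8 ± 7.58 CPM, and Socs1 from 16.6 ± 1.90 to 21.9 ± 4.08 CPM. Their edgeR Benjamini-Hochberg adjusted p with the block was 0.00446, 0.00909 and 0.0360. Socs5 fell from 207 ± 26.9 to 171 ± 9.78 CPM. DESeq2 called Ptpn1 among them. Of the SOCS family, Socs3 thus stood beside 1 gene that rose, 1 that fell and 5 that did not pass in the blocked fit (Socs2, Socs4, Socs6, Socs7 and Cish).

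The list of genes described as STAT3 targets held the most calls and was also the longest. Of 33 tested, 2 rose without pairing, 20 rose and 3 fell with the block, and DESeq2 had 13 higher and 0 lower. The shares over all tested genes were 0.211% higher and 0.132% lower without pairing. They were 6.91% and 7.51% with the block and 2.82% and 3.2% in DESeq2. The 3 lower calls with the block lie near the share of that fit. The median log2 fold change was 0.51, or 0.42 with the block and the length correction, beside 0.00 and -0.01 for all tested genes. The list was assembled from general knowledge with earlier results of these data known, so its counts and median are descriptions. Many of its genes also respond to NF-kappaB, C/EBP or cyclic AMP signalling. The direction of the list therefore does not name the pathway behind it.

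Ier3, an early response gene, was at 18.1, 16.9 and 21.4 CPM in vehicle and 34.8, 35.0 and 34.0 CPM under PGE2, and rose by 0.88 ± 0.099 on the log2 scale (SE, edgeR Benjamini-Hochberg adjusted p = 0.0355). Nfkbiz, which encodes an IkappaB protein of the nucleus, rose from 25.3 ± 1.13 to 41.4 ± 2.49 CPM (adjusted p = 0.0300). For both, every PGE2 library lay above every vehicle library.

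For Serpina3n, Saa3 and Hp, genes of acute phase proteins with the block's smallest adjusted p among the genes of the list that rose, the libraries of a group lay farther apart. Serpina3n was at 37.5, 62.4 and 92.9 CPM in vehicle and 87.1, 172 and 197 CPM under PGE2, so the groups overlapped while each pair differed by 1.08 to 1.46 on the log2 scale. Saa3 was at 1.40, 2.04 and 3.74 CPM in vehicle and 5.599, 15.3 and 15.3 CPM under PGE2. Hp, the haptoglobin gene, was at 34.9, 57.7 and 56.6 CPM and at 69.0, 167 and 160 CPM. With the block these rose at edgeR Benjamini-Hochberg adjusted p of 4.8e-05, 5.9e-05 and 9.4e-05, and without it they did not pass (0.182, 0.113 and 0.137). Serpina3n and Saa3 have close relatives in the genome, so their counts are uncertain.

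Ccnd1, the cyclin D1 gene, fell with the block, from 469, 223 and 180 CPM in vehicle to 247, 121 and 93.2 CPM in the PGE2 libraries of the same numbers. The other 2 genes of the list that fell were Bcl2l1, which encodes a survival protein, and the adhesion molecule gene Icam1. The remaining 15 that rose with the block were Junb, Fos, Bcl3, Cebpb, Cebpd, Pim1, Timp1, Tnfrsf1a, Il4ra, Hif1a, Vegfa, Lcn2, Lbp, Cd14 and Zfp36. Their log2 fold changes ran from 0.26 for Tnfrsf1a to 1.12 for Lcn2.

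The 22 genes that control transcription or RNA decay of Il6 and Lif were all tested. Crem, a cyclic AMP response factor gene, rose without pairing, from 6.42, 7.19 and 7.60 CPM in vehicle to 11.8, 13.7 and 12.5 CPM under PGE2 (log2 fold change 0.84 ± 0.117 SE, edgeR Benjamini-Hochberg adjusted p = 0.0416, or 0.0554 with the length correction alone). With the block, Arid5a, whose product stabilizes Il6 RNA, rose from 5.77 ± 1.01 to 9.62 ± 2.39 CPM. Zc3h12a, whose product Regnase-1 degrades Il6 RNA, rose as well, from 12.03 ± 0.874 to 17.5 ± 1.41 CPM, and Zfp36l2, another gene of RNA decay, fell from 184 ± 16.9 to 156 ± 18.0 CPM. In the blocked fit 3 of the 22 were called higher and 1 lower, beside 6.91% and 7.51% of all tested genes. The lower call was thus no more frequent than in the whole table. The 3 higher calls include a stabilizer and a destabilizer of Il6 RNA, and its decay was not measured. The NF-kappaB subunit genes Nfkb1, Nfkb2, Rela and Relb had log2 fold changes of -0.06 to 0.05 and did not pass, and the list median was -0.04.

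**Figure D4:**
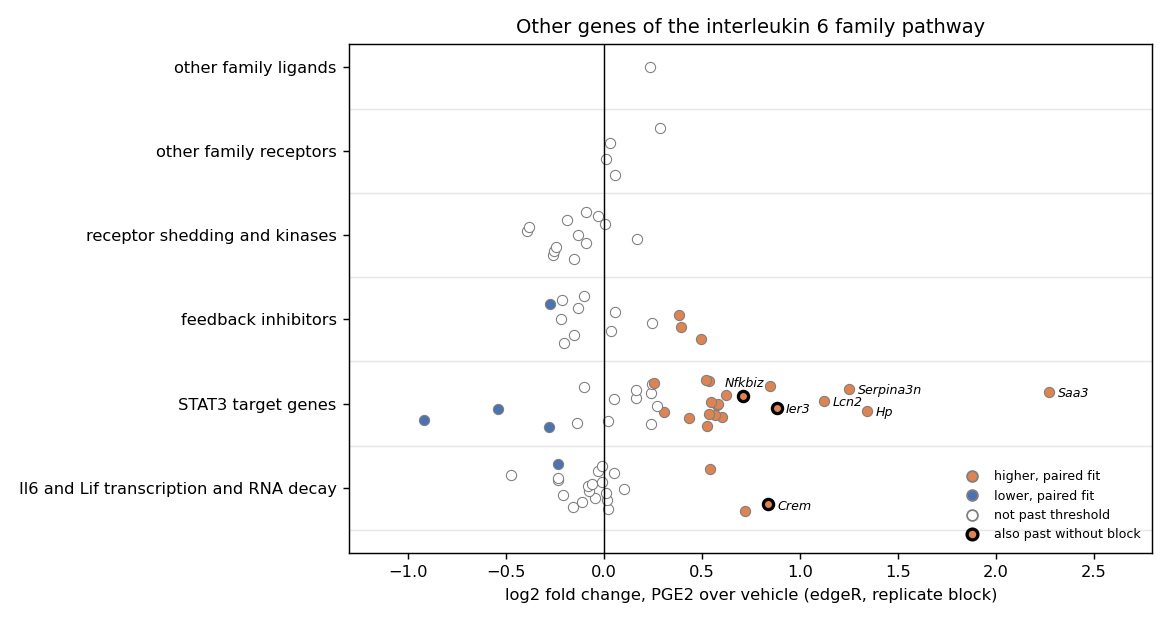
Log2 fold change of PGE2 over vehicle in the blocked edgeR fit (horizontal axis) for the 86 tested pathway genes in 6 lists, 1 point a gene. Orange and blue points passed a Benjamini-Hochberg adjusted p under 0.05 in that fit and thick outlines mark the 3 genes that also passed without pairing. Most points past the threshold lie to the right in the row of STAT3 target genes.

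For a comparison of levels, the candidates were 10325 tested genes averaging 5 CPM or more, without symbols of predicted gene models. The genes whose levels across the 6 libraries were most like those of Il6 were found among them by Pearson correlation of log2 CPM. They were Pde10a, a phosphodiesterase gene (r = 0.997), Camk2n2 (0.994), the kinase gene Sgk1 (0.993), Uxs1 (0.992), the tumor necrosis factor receptor family gene Relt (0.991) and St7 (0.991). Pde10a was at 14.6, 14.4 and 15.1 CPM in vehicle and 21.3, 25.5 and 25.6 CPM under PGE2, with library 1 lowest among the treated, as for Il6. Of the other family genes, Clcf1 correlated with Il6 at 0.958 (rank 135 of 10325), Lif at 0.942 (rank 218) and Socs3 at 0.903 (rank 492). Osmr was at 0.741, Stat3 at 0.425, Il6st at 0.21, Il6ra at -0.074 and Lifr at -0.678. Il11 averaged below 5 CPM and was not among the candidates.

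Genes most like Socs3 included Gfpt2, a hexosamine pathway enzyme gene (r = 0.998), Medag (0.997), Slc35b2 (0.996), Txndc11 (0.995) and the cathepsin B gene Ctsb (0.994). Gfpt2 was at 88.9, 121 and 117 CPM in vehicle and 142, 179 and 181 CPM under PGE2, with library 1 lowest in both groups. Both sets share the group difference and the library scaling of only 6 libraries, so the correlations are descriptions without a test.

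Markers of other cells that could sit in such a culture are given beside these results. Across all tested genes 6.91% were higher and 7.51% lower in the blocked fit, or 8.82% and 7.97% with the length correction added. Of 12 leukocyte and macrophage markers 4 were tested, Ptprc and Cd3e had 0 counts in all libraries, and the summed level was 10.0 to 10.9 CPM in vehicle and 12.9 to 13.4 CPM under PGE2. In the blocked fit Csf1r and Cd14 rose, of which Csf1r also passed with the length correction added, and Cd14 is also in the list of STAT3 targets. The 10 myogenic markers summed to 179, 58.5 and 38.2 CPM in vehicle and 115, 14.6 and 14.3 CPM under PGE2, and 6 of 8 tested fell in the blocked fit, or 3 with the length correction added, while Pax7 had at most 3 counts. Library 1 thus held the highest myogenic level in each group, and PGE2 library 1 was also the treated library with the least Il6. Among the vehicle libraries, library 1 did not have the least Il6, at 1.56 CPM beside 1.14 CPM in library 2. Endothelial markers summed to 21.6 to 47.6 CPM in vehicle and 19.3 to 33.8 CPM under PGE2, with Cldn5 at 0 in all libraries and Tek lower in the blocked fit. Pericyte and smooth muscle markers summed to 85.0 to 152 CPM in vehicle and 61.7 to 112 CPM under PGE2. Of these, 4 of 8 were lower in the blocked fit, or 1 with the length correction added. Des is in both this list and the myogenic list, so its lower call in the blocked fit is counted in each. Schwann cell markers summed to 19.1 to 51.5 and 15.3 to 62.9 CPM, with Sox10 at 0 and 2 of 4 tested lower. Of the 10 progenitor markers, Ly6a and Thy1 rose and Cd34 and Lum fell in the blocked fit, and Dcn and Dpp4 rose as well with the length correction added. The part of these cells in the family's differences was not tested.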

How the data were processed

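RNA was read as 100-base paired ends from 6 libraries, per the labels' protocols. The authors deposited whole-number counts per gene, with 1 Ensembl identifier and symbol for each. The submitters' processing notes name mm10 as the genome build. The aligner, counter, strand setting and annotation are not given in the sources used. Counts of overlapping genes are therefore uncertain. Totals of 21006044 to 52730962 counts set the precision of low genes.

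The test was that of edgeR 4.0.16 under R 4.3.3 (filterByExpr, trimmed mean of M values, robust quasi-likelihood test, Benjamini-Hochberg adjustment over 15186 genes, threshold 0.05). Groups and replicate numbers came from sample titles. The members, the lists and the tests were chosen with earlier results of these data known. Named genes are the 10 members, in each pathway list those past the threshold and up to 4 with the smallest adjusted p in the blocked fit, and the 6 genes most correlated with Il6 and with Socs3. Other names were added after their values were seen, and some genes that these rules name are not reported here.

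Deviations from group means correlated between same-numbered libraries at 0.621, 0.169 and 0.422, above the 0.1 required of every pair, so a fit blocked on this number is given where it changes a call. The labels do not state this pairing. Vehicle library 3 with PGE2 library 2 gave 0.252 and vehicle library 2 with PGE2 library 3 gave 0.145, so a matching with these numbers exchanged would meet the rule too, and it was not fitted.

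Alternatives were DESeq2 version 1.42.0, a lowess length correction (span 0.3, GENCODE transcript lengths), other scalings and filters, and libraries or pairs left out. Some of the fits were also run on simulated counts with the same dispersion for every gene. Those counts are simpler than these libraries, so nothing about the fits to these data is read from them. Protein sequences were not used here.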

Additional observations from a re-analysis of the deposited data

How the results depend on the processing

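Il6, Lif, Il11, Clcf1, Osmr, Stat3 and Socs3 kept a positive and Lifr a negative log2 fold change under all 17 alternatives, while Il6ra and Il6st changed sign in 3 each. The ranges were 2.76 to 3.47 for Il6, 0.66 to 0.97 for Socs3 and -0.63 to -0.23 for Lifr. Counts of calls moved far more. They were 52 genes in all, 3 pathway genes and 1 member without pairing. In the same order they were 2189, 31 and 6 with the replicate block, which pairs same-numbered libraries, 15, 2 and 0 with the length correction, and 2549, 33 and 9 with both. DESeq2 gave 829, 17 and 5, and no filter on low counts gave 285, 8 and 3. Leaving out 1 library gave 0 to 120, 0 to 8 and 0 to 1. All 3 counts were 0 when library 2 or 3 of vehicle or library 2 or 3 of PGE2 was left out, where, in this order, 1871, 3697, 1494 and 2597 genes had an unadjusted edgeR p under 0.05. Without vehicle library 1 they were 30, 0 and 0, and without PGE2 library 1 they were 120, 8 and 1. The blocked fit without pair 1, 2 or 3 called 1372, 1160 and 5097 genes, 24, 25 and 52 pathway genes, and 5, 5 and 5 members, but not the same ones. Il6 was not called without pair 3 (edgeR Benjamini-Hochberg adjusted p = 0.13), and the lower call of Lifr was lost without pair 1 (0.0562) and without pair 2 (0.0692). The cause of these shifts was not tested. Library totals, DESeq2 size factors and a filter of 1 CPM in 3 libraries gave 48 to 65 genes, 3 pathway genes and 1 member. Low counts limit Il6 and Il11 in vehicle, with 24 counts each in the smallest library.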
